A study of Mus musculus with 9 samples.

Results

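Lat, Lcp2, Syk, Plcg2, Rasgrp2, Was, Iqgap2 and Dok2 are 8 genes of the signalling machinery that platelets and other blood cells use below their activating receptors. They were taken by name from a read count table of 46078 genes, of which 26424 had at least 1 count, and were chosen by their measured levels, having been found high in the Sca-1- fraction of sorted bone marrow cells in earlier work on the same table. The difference between the fractions is therefore given here as a description and without a test. The table held 9 rows for the 8 names, since Rasgrp2 also had a second identifier that had 0 counts in all 9 libraries.

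The table came from RNA-seq of cells sorted from the bone marrow of wild type B6 mice and labelled as endothelial cells. All cells were gated as negative for CD45 and Ter119, markers of leukocytes and red cells, and positive for CD31, and were then divided by Sca-1 (encoded by Ly6a) into a Sca-1+ fraction of 4 libraries (7, 13, 15 and 19, the numbers that end their names) and a Sca-1- fraction of 5 libraries (8, 10, 14, 16 and 22). The names of libraries 8, 15, 16 and 19 carry wt and those of 10, 13, 14 and 22 a different mark, which the labels do not explain, and the names of 15 and 16 share a number. The labels give no age and no treatment, and do not say whether each library was 1 mouse or a pool or whether libraries 15 and 16 share a mouse, so the p-values measure only the spread between these libraries. The libraries were made from 2 ng of RNA without molecular identifiers and held 21581653 to 25959818 counts.

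When collagen binds GPVI or podoplanin binds CLEC-2 on a platelet, Src family kinases phosphorylate the ITAM motif of the receptor and the kinase Syk docks there. Syk then phosphorylates the membrane adaptor LAT and the cytosolic adaptor SLP-76 (encoded by Lcp2), which together hold phospholipase C gamma 2 (Plcg2) in place. The calcium that this enzyme releases switches on CalDAG-GEFI (Rasgrp2), which loads Rap1 and thereby activates integrins. The Wiskott-Aldrich protein (Was) and IQGAP2 act on the actin skeleton, and DOK2 restrains the signal.

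The sort itself was visible in the counts. Ly6a ranged from 0.240 to 1.49 CPM (counts scaled to a common library size with the TMM method) in Sca-1- and from 874 to 1306 CPM in Sca-1+. All 12 megakaryocyte markers listed were above 3 counts in every Sca-1- library, and their summed level was 24940 to 105770 CPM there against 39.0 to 84.4 CPM in Sca-1+. The 12 endothelial markers summed to 616 to 2586 CPM in Sca-1- and 6166 to 7510 CPM in Sca-1+, so the leading markers of Sca-1- went against its endothelial label. Esam alone held 303 to 2376 CPM in Sca-1- and was not called between the fractions (adjusted p 0.764, edgeR). The other 11 markers (91.7% of the list) were called higher in Sca-1+, against 23.3% of all genes. The 8 pan-leukocyte markers summed to 2269 to 4064 CPM in Sca-1- and 88.6 to 161 CPM in Sca-1+, a sum carried mostly by Arhgdib, Laptm5 and Coro1a. Ptprc, which encodes the CD45 that the gate was set to remove, was at 17.2 to 47.8 CPM in Sca-1- and at most 2.56 CPM in Sca-1+. The part of the megakaryocyte and leukocyte markers in the values below was not tested. In sorted pools, fewer cells of a type and less RNA per cell cannot be told apart. The running numbers of the libraries were 30016 to 30019 in Sca-1+ and 30108 to 30115 in Sca-1-, so that any batch following them cannot be told apart from the fraction.

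Promoters are shown here, since the 8 genes were high in the same libraries and lie on 7 chromosomes. RefSeq windows of 300 bases around annotated starts (GRCm38.p6) were found for 7 of the 8 genes, with a pair of windows each for Syk and Rasgrp2 and none for Dok2, giving 9 windows. Motifs of blood cell transcription factors were searched on both strands: AGATAA or TGATAA for GATA factors, AGGAAG or CGGAAG for ETS factors, TGTGGT for RUNX factors and TGAGTCA for NF-E2. The sequences below run 5′ to 3′ along the gene over the 240 bases that end 11 bases before the annotated start, and capitals mark the motifs. Lat, Lcp2 and Was are shown because each held more than 1 match, and Plcg2 because it was the least different between the fractions.
Lat, chr7:126369579-126369818, minus strand: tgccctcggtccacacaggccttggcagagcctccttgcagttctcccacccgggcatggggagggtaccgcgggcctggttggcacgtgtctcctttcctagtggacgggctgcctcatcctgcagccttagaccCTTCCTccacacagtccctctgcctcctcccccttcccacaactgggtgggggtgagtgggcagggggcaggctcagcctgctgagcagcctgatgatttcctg
Lcp2, chr11:34046678-34046917, plus strand: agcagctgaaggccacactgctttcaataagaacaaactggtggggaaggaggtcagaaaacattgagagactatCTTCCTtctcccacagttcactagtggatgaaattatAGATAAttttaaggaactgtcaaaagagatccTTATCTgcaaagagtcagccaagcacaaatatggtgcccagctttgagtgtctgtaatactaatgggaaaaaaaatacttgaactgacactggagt
Was, chrX:8090502-8090741, minus strand: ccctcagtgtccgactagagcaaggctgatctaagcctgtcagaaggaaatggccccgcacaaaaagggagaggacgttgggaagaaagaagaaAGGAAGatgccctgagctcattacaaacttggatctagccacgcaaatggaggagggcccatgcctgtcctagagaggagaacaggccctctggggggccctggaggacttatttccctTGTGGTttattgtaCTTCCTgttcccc
Plcg2, chr8:117498025-117498264, plus strand: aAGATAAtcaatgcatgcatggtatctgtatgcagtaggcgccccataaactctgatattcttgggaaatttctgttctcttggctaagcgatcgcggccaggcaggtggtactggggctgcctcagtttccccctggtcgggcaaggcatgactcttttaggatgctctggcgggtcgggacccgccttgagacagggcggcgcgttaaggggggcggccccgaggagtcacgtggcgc
The ETS letters occurred in 5 of the 9 windows, those of Lat, Lcp2, Was, Iqgap2 and the downstream start of Rasgrp2, and in 46.5% of all 32817 windows. The GATA letters occurred in 3 windows, of Lcp2, Plcg2 and the downstream start of Syk, against 18.6% of all windows. Lcp2 held both of its GATA matches within 138 bases of the start, whereas the match of Plcg2 began 249 bases away. The RUNX letters stood in the windows of Lat and Was, 5 and 37 bases before their starts (the match of Lat lies beyond the part printed), and in 16.8% of all windows. No window held the NF-E2 letters, which 5.20% of all windows did. These are matches of letters and not binding sites, and no motif was shared by all 9 windows.

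Among 15937 genes tested with edgeR's quasi-likelihood fit, 21.4% were higher in Sca-1- and 23.3% were higher in Sca-1+ at an adjusted p under 0.05, and in 18.8% every Sca-1- library lay above every Sca-1+ library. In all 8 genes the fractions did not overlap, as their selection fixed. Folds below are Sca-1- over Sca-1+ means of CPM, and log2 fold changes are edgeR estimates with their standard errors (SE).

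Syk (chr13:52583173-52648792, plus strand, GRCm38), the kinase that opens the cascade, had 4629, 6544, 4376, 3215 and 3871 counts in Sca-1- libraries 8, 10, 14, 16 and 22, and 101, 22, 59 and 70 counts in Sca-1+ libraries 7, 13, 15 and 19. Libraries 10 and 8 were highest among Sca-1-, and library 13 was far below the other Sca-1+ libraries. Scaled, Syk was 237 ± 138 CPM (SD, n = 5) in Sca-1- and 2.23 ± 1.14 CPM (SD, n = 4) in Sca-1+, a 106-fold difference (log2 fold change 6.73, SE 0.65). Zap70, which replaces Syk in T cells, was at 0 counts in 4 Sca-1- libraries and at 3 counts in library 22. In Sca-1+ libraries 7, 13, 15 and 19 it had 11, 0, 23 and 21 counts. Syk made up 51.8% to 100% of their summed level per kb of principal transcript in Sca-1+.

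Lat (chr7:126363824-126369570, minus strand, GRCm38) encodes the membrane adaptor. It had 9191, 9950, 9907, 10572 and 8115 counts in the Sca-1- libraries and 24, 22, 15 and 9 in the Sca-1+ libraries. Its counts in Sca-1- were the steadiest of the 8 genes, and few were left in Sca-1+. Its level was 470 ± 153 CPM (SD, n = 5) in Sca-1- and 0.608 ± 0.216 CPM (SD, n = 4) in Sca-1+, the largest ratio among the 8 genes at 772-fold (log2 fold change 9.58, SE 0.46). Lat is best known from T cells. The 10 T cell markers summed to 10.2 to 24.8 CPM in Sca-1- and 38.3 to 52.1 CPM in Sca-1+, a sum carried in Sca-1+ by Cd247 and Lck, which were higher there in edgeR (log2 fold changes -5.24 and -3.71), while Cd2 (5.04) and Cd28 (5.25) were higher in Sca-1-. Of the defining markers, Cd8a was at 0 counts in all libraries, and Cd3d, Cd3e and Cd3g were at 0 in Sca-1+. In Sca-1-, Cd3e had 47 and Cd3g 16 counts in library 14 and 0 in the others, and Cd3d had at most 2 counts in any library. The part of T cells in the level of Lat was not tested.

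Lcp2 (chr11:34046920-34092295, plus strand), the partner adaptor SLP-76, had 14010, 17116, 14760, 10333 and 10731 counts in Sca-1- and 522, 697, 619 and 193 in Sca-1+. Library 19 held less than the other Sca-1+ libraries, which were close to each other. Its means of 689 ± 341 CPM (SD, n = 5) in Sca-1- and 17.6 ± 7.18 CPM (SD, n = 4) in Sca-1+ made a 39.1-fold difference (log2 fold change 5.29, SE 0.53). Unlike Lat, Lcp2 thus kept at least 193 counts in every Sca-1+ library.

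Plcg2 (chr8:117498291-117635142, plus strand) stood apart from the other genes. It had 1918, 1643, 1868, 2414 and 3918 counts in Sca-1- and 979, 899, 573 and 1335 in Sca-1+. Library 22 was highest among Sca-1- and library 19 among Sca-1+, and the lowest Sca-1- level was only 1.53 times the highest Sca-1+ level. The means of 110 ± 32.9 CPM (SD, n = 5) and 33.9 ± 13.2 CPM (SD, n = 4) gave a 3.24-fold difference (log2 fold change 1.70, SE 0.32). The 8 B cell markers were highest in the same libraries, at 290 CPM in library 22 against at most 100 CPM in the other Sca-1- libraries and at 265 CPM in library 19 against 117 to 135 CPM in the other Sca-1+ libraries. Without libraries 16, 22 and 19 the log2 fold change of Plcg2 was 1.89 (SE 0.29), and the part of B cells was not tested.

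Rasgrp2 (chr19:6399340-6415216, plus strand), the exchange factor of Rap1, was the gene with the highest level per kb of principal transcript in both fractions, as given below. It had 41040, 52719, 33549, 22631 and 19210 counts in Sca-1- and 797, 1042, 1086 and 1533 in Sca-1+. Within Sca-1- it spread the most of the 8 genes with TMM scaling (with library size only, Plcg2 had an SD of log2 CPM of 0.57 and Rasgrp2 of 0.56), library 10 holding the highest level at 3681 CPM and library 16 the lowest at 751 CPM. The Sca-1- mean of 1821 ± 1251 CPM (SD, n = 5) exceeded the Sca-1+ mean of 39.9 ± 13.7 CPM (SD, n = 4) by a factor of 45.7 (log2 fold change 5.51, SE 0.63). Among Sca-1+ libraries, Rasgrp2 was highest in library 19, in which Lcp2 was lowest.

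Was (chrX:8081453-8090498, minus strand), the activator of Arp2/3 that is mutated in a syndrome with small platelets, was the lowest of the 8 per kb in both fractions, with 530, 606, 282, 553 and 611 counts in Sca-1- and 0, 0, 3 and 5 counts in Sca-1+. The Sca-1+ libraries sat at or near the limit of 3 counts, which corresponds to 0.102 to 0.116 CPM there. The means of 25.9 ± 11.8 CPM (SD, n = 5) and 0.0743 ± 0.0933 CPM (SD, n = 4) gave a 348-fold ratio, with a 95% counting interval of 177 to 807 from the 8 counts in Sca-1+. This interval covers counting error only. The fitted log2 fold change of 8.40 (SE 0.88) became 9.36 without Sca-1+ library 19, which held 5 of those counts.

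Iqgap2 (chr13:95627177-95891922, minus strand), a scaffold for actin, Rac and Cdc42, had 2774, 2962, 4889, 3982 and 5677 counts in Sca-1- and 77, 50, 105 and 51 in Sca-1+. Library 22 was the highest of Sca-1-, as for Plcg2. The spread was narrow with TMM scaling (SD of log2 CPM 0.32) and wider with library size only (0.52). The mean levels, 189 ± 39.2 CPM (SD, n = 5) in Sca-1- and 2.48 ± 0.855 CPM (SD, n = 4) in Sca-1+, differed 76.1-fold (log2 fold change 6.25, SE 0.34). Dok2 (chr14:70766036-70778495, plus strand), the inhibitory adaptor that recruits RasGAP, had 7389, 7069, 10317, 8581 and 10094 counts in Sca-1- and 45, 24, 30 and 17 in Sca-1+. Its Sca-1- libraries lay close together at 285 to 494 CPM. The means of 414 ± 78.2 CPM (SD, n = 5) and 1.01 ± 0.381 CPM (SD, n = 4) differed 410-fold (log2 fold change 8.67, SE 0.39).

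**Figure D1:**
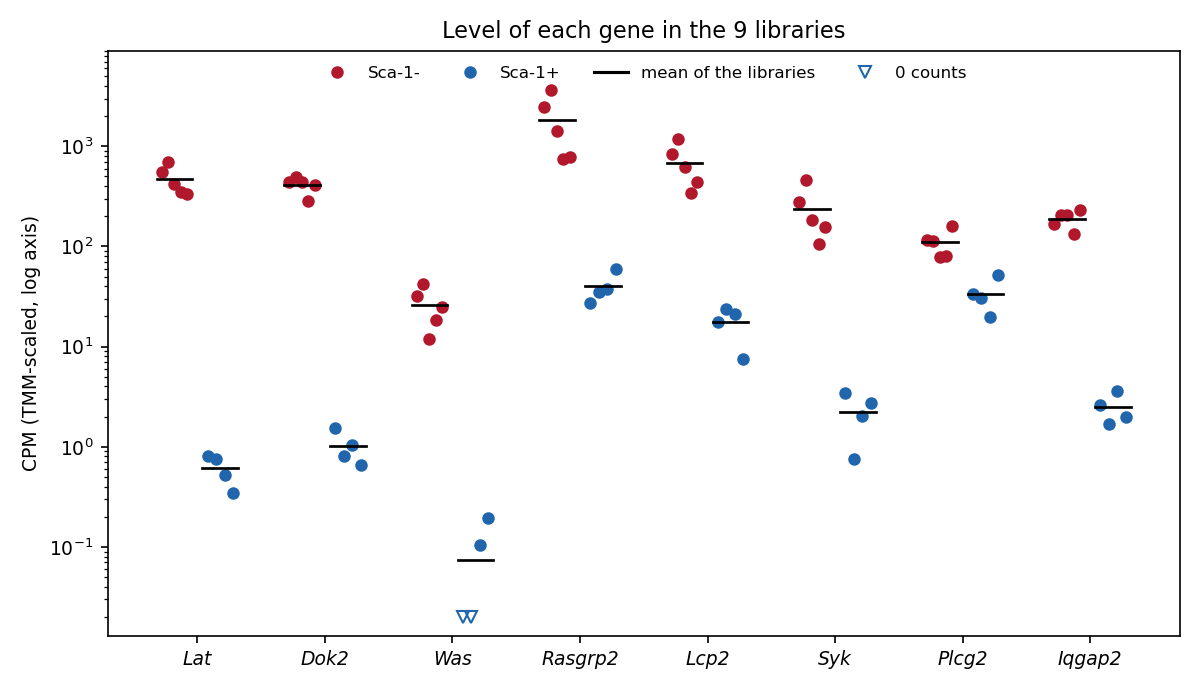
Level of each of the 8 genes in the 5 Sca-1- and 4 Sca-1+ libraries, as TMM-scaled CPM on a log axis, with black lines for the means and open triangles for libraries with 0 counts. Plcg2 shows the narrowest gap (110 against 33.9 CPM on average) and Lat the widest (470 against 0.608 CPM).

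The level left in Sca-1+ therefore covered a wide range, from 0.130% of the Sca-1- mean for Lat, 0.244% for Dok2 and 0.287% for Was to 0.943% for Syk, 1.31% for Iqgap2, 2.19% for Rasgrp2, 2.56% for Lcp2 and 30.8% for Plcg2. The megakaryocyte markers were at 0.0958% by the same measure. Set against Itga2b, the integrin chain that marks megakaryocytes, the comparison needs no scaling between libraries. Per 100 counts of Itga2b there were 2.98 to 6.34 counts of Lat in Sca-1- and 3.53 to 7.14 in Sca-1+, so the ratios overlapped. For Was the ratios also overlapped, at 0.146 to 0.377 and 0 to 1.96, on at most 5 counts a library in Sca-1+. Dok2 had 2.12 to 6.22 counts per 100 of Itga2b in Sca-1- and slightly more, 6.67 to 13.2, in Sca-1+. Syk had at most 2.39 per 100 in Sca-1- and at least 7.14 in Sca-1+, and Iqgap2 at most 3.50 and at least 16.2. The ratio of Lcp2 was 4.59 to 7.65 in Sca-1- and 75.7 to 226 in Sca-1+. For Rasgrp2 it was 11.8 to 17.4 and 233 to 601, and for Plcg2 it was 0.493 to 2.41 and 177 to 524. In relation to Itga2b, Lat and Was thus overlapped between the fractions. On the same measure, Dok2, Syk, Iqgap2, Lcp2, Rasgrp2 and Plcg2 were higher in every Sca-1+ library than in any Sca-1- library. This split rests on a single marker, and for Dok2 it depends on the marker chosen. Summed over libraries, Dok2 had 43450 counts in Sca-1- and 116 in Sca-1+. The megakaryocyte marker Gfi1b had 60419 and 545, so that Dok2 was lower in Sca-1+ in relation to Gfi1b. Ratios to other markers within each library were not tested.

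Levels of different genes were compared per kb of their principal transcript. In Sca-1-, Rasgrp2 was highest at 793 ± 545 CPM per kb (SD, n = 5), followed by Lat at 380 ± 124, Dok2 at 231 ± 43.6, Lcp2 at 189 ± 93.7, Syk at 44.2 ± 25.7, Iqgap2 at 32.7 ± 6.80, Plcg2 at 25.5 ± 7.66 and Was at 12.2 ± 5.58 CPM per kb. Each gene lay above the next in 5 of 5 libraries, except that Dok2 exceeded Lcp2 in 4 and Syk exceeded Iqgap2 in 2. Rasgrp2, Lat, Dok2 and Lcp2 each stood above at least 97.1% of the tested genes of Sca-1- on this scale, and Was above 68.4%. With the union of all annotated exons as the length, which is 12384 bases for Rasgrp2 against 2296 bases of its principal transcript, Lat came first at 170 CPM per kb, while Lcp2 was at 154 and Rasgrp2 at 147. The order of the leading 4 genes therefore rests on the length chosen.

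In Sca-1+, Rasgrp2 was again first at 17.4 CPM per kb, but Plcg2 came next at 7.88 followed by Lcp2 at 4.83. Dok2, Lat, Iqgap2 and Syk followed at 0.417 to 0.563 CPM per kb with ranges that overlapped, and Was closed the order at 0.0351. With the union of exons as the length, Plcg2 came first at 7.88, ahead of Lcp2 at 3.95 and Rasgrp2 at 3.22. The first place of Rasgrp2 in Sca-1+ therefore also rests on the length chosen. Expressed as shares of the 8 genes' summed level, which also needs no scaling between libraries, Plcg2 took up to 29.0% of the sum, and never less than 15.95%, in Sca-1+ and 0.909% to 3.45% in Sca-1-. The share of Lat was 0.680% to 2.44% in Sca-1+ and 19.2% to 30.4% in Sca-1-.

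**Figure D2:**
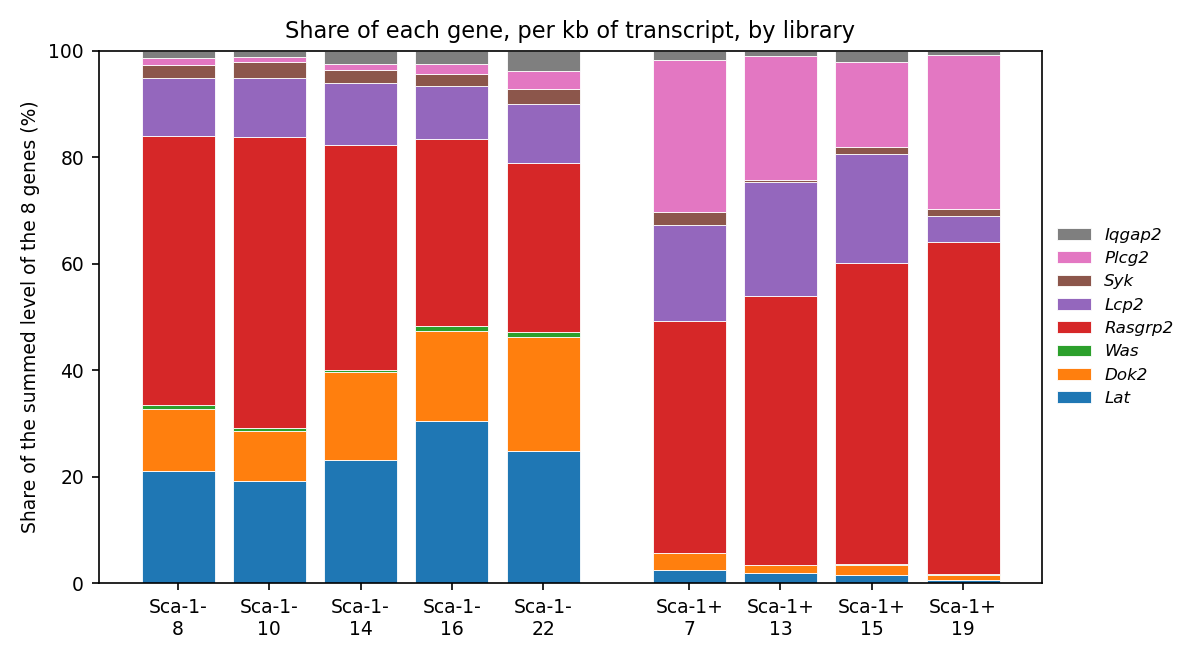
Share of each gene in the summed level of the 8 genes (CPM per kb of principal transcript) in each library, the bars adding to 100%. Lcp2 takes 10.1% to 11.7% in every Sca-1- library, whereas the share of Rasgrp2 runs from 31.7% in library 22 to 54.6% in library 10.

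Within Sca-1- the shares of Rasgrp2 and Dok2 ran in opposite order over the libraries. Lcp2 held a nearly fixed share of 10.1% to 11.7%. The share of Rasgrp2 was 50.6%, 54.6%, 42.2%, 35.0% and 31.7% in libraries 8, 10, 14, 16 and 22, and that of Dok2 was 11.7%, 9.36%, 16.6%, 17.0% and 21.3%. Counts of Rasgrp2 per count of Dok2 accordingly fell from 7.46 in library 10 to 1.90 in library 22. The sum of the megakaryocyte markers was also highest in libraries 10 and 8, at 105770 and 84087 CPM, followed by 51266 CPM in library 14, 34670 in library 22 and 24940 in library 16. Together the 8 genes made up 0.240% to 0.399% of all counts in Sca-1- libraries and 0.0101% to 0.0139% in Sca-1+ libraries.

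The scaling shaped the spread of Lat. Its SD of log2 CPM over the Sca-1- libraries was 0.45 with TMM factors and 0.07 with library size alone, because libraries 8 and 10 had factors of 0.671 and 0.581 against 0.988 to 1.16 in the other Sca-1- libraries. With the TMM factors, Dok2 had the lowest SD of the 8 genes (0.30) and Rasgrp2 the highest (1.01), where Sca-1- genes of like level had a median SD of 0.68 and 0.86, respectively. The spread of Syk, 0.80, was above the median of 0.50 for genes of its level. None of these spreads was tested. Exons of Lat, Lcp2 and Rasgrp2 overlap a small annotated gene each (Mir7058, 4930469K13Rik and Gm14965), which had at most 118 counts in any library.

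Close relatives of the 8 genes were examined next, to learn which family member each fraction expressed. Of 24 relatives listed by gene family, 18 could be tested, 5 of them (27.8%) were higher in Sca-1- and 3 (16.7%) higher in Sca-1+ at an adjusted p under 0.05 in edgeR, shares not far from the 21.4% and 23.3% of all genes. Their median log2 fold change was 0.08 against -0.07 for all genes. The remaining 10 did not pass the test.

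Several families had different leading members in each fraction. Plcg1, the phospholipase of T cells and endothelium, was higher in Sca-1+ (85.2 ± 16.4 CPM, SD, n = 4) than in Sca-1- (19.8 ± 7.96 CPM, SD, n = 5) and reached an adjusted p of 0.000475 in edgeR (log2 fold change -2.10). Per kb of principal transcript, Plcg2 exceeded Plcg1 4.66 to 11.4 times in Sca-1- and was 0.247 to 0.846 times Plcg1 in Sca-1+. With the union of exons as the length, Plcg2 made up 27.5% to 56.6% of their summed level in Sca-1+. On that length Plcg1 did not lead in library 19, where Plcg2 was at 56.6%. Iqgap1, the widely expressed paralog of Iqgap2, was also higher in Sca-1+ (log2 fold change -1.17, adjusted p 0.00955, edgeR), with 132 ± 18.9 CPM (SD, n = 4), more than the 58.5 ± 23.5 CPM (SD, n = 5) of Sca-1-. Its call was lost when libraries with consecutive end numbers were blocked as pairs (adjusted p 0.0554, edgeR). Iqgap2 made up 62.9% to 89.3% of the family's summed level per kb in Sca-1- and 1.59% to 3.37% in Sca-1+, where Iqgap1 made up at least 94.0%.

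Among the DOK adaptors, Dok4 was higher in Sca-1+ with the largest change of any relative in that direction. It had 97.2 ± 20.6 CPM (SD, n = 4) there and 5.18 ± 1.63 CPM (SD, n = 5) in Sca-1- (log2 fold change -4.23, adjusted p 1.52e-05, edgeR). Dok1, a close relative of Dok2 in blood cells, was higher in Sca-1-, at 202 ± 172 CPM against 12.1 ± 1.68 CPM (log2 fold change 4.06, adjusted p 0.000446, edgeR). Dok5 was also called higher in Sca-1- (log2 fold change 2.69, adjusted p 0.0307, edgeR) at no more than 3.22 CPM, a call lost without Sca-1+ library 7, 15 or 19, whereas Dok3 was not called (1.20, adjusted p 0.0796). Dok2 made up 49.8% to 75.2% of the family per kb in Sca-1-, and in Sca-1+ Dok4 led with 67.9% to 82.5%. With the union of exons as the length, the share of Dok2 in Sca-1- was 40.3% to 68.5%. On that length Dok1 stood above Dok2 in library 10. Dok6 and Dok7 were below the filter. Dok4 shares 953 bases of exon with Polr2c on the opposite strand, and the sources used here do not say whether reads were counted by strand, so its level is uncertain.

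Rasgrp3, an exchange factor known from endothelium and B cells, did not pass the test between the fractions, with 158 ± 137 CPM in Sca-1- and 189 ± 12.3 CPM in Sca-1+ (log2 fold change -0.26, adjusted p 0.736, edgeR). Rasgrp2 held 94.7% to 97.3% of its family per kb in Sca-1- (80.4% to 89.1% with the union of exons), and Rasgrp3 held 54.4% to 70.5% in Sca-1+. Rasgrp1 (log2 fold change -2.31, adjusted p 0.0923) and Rasgrp4 (-0.55, adjusted p 0.142) were not called in edgeR. Of the relatives of Was, the ubiquitous Wasl (0.41, adjusted p 0.421), Wasf1 (-0.65, adjusted p 0.605) and Wasf2 (-0.78, adjusted p 0.0641) were not called in edgeR. Was made up 33.4% to 46.4% of its family in Sca-1-, beside Wasl at 11.8 CPM per kb on average against 12.2 for Was, and at most 0.363% in Sca-1+. Iqgap3 was not called (1.26, adjusted p 0.257).

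Lat2, a LAT-like adaptor of myeloid and B cells, was higher in Sca-1- (log2 fold change 5.73, adjusted p 0.00139, edgeR). It reached 189 CPM in library 16 and 9.67 to 40.6 CPM in the other Sca-1- libraries. Library 16 also held by far the most of the 6 mast cell and basophil markers, 12658 CPM against 63.2 to 1755 CPM, while Lat (351 CPM), Lcp2 (343 CPM), Syk (107 CPM) and Rasgrp2 (751 CPM) were at or near their lowest Sca-1- levels there. Blnk, which takes the place of SLP-76 in B cells, was higher in Sca-1- as well (log2 fold change 5.17, adjusted p 0.0161, edgeR), with 64.9 CPM in library 22, where the B cell markers peaked, and 0.977 to 15.9 CPM in the others. The estimate for Lat2 was 4.34 without Sca-1- library 16, and that for Blnk was 3.79 without Sca-1- library 22 and 6.47 without Sca-1+ library 19. Both calls held when these libraries were left out and without libraries 16, 22 and 19 together. The call of Blnk was lost when libraries with consecutive end numbers were blocked as pairs (adjusted p 0.0579, edgeR). Whether such cells contribute to Lat2 or Blnk was not tested. Sit1 was called on at most 3.54 CPM (log2 fold change 4.49, adjusted p 0.0347, edgeR) with a fold that rests on the 6 counts of Sca-1+ library 7 (7.95 without it), and lost its call without Sca-1+ library 13, 15 or 19. Pag1 (2.12, adjusted p 0.159) and Lax1 (-0.30, adjusted p 0.855) were not called in edgeR, and Lime1, Wasf3 and Zap70 were below the filter, while Clnk had 0 counts in all libraries.

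**Figure D3:**
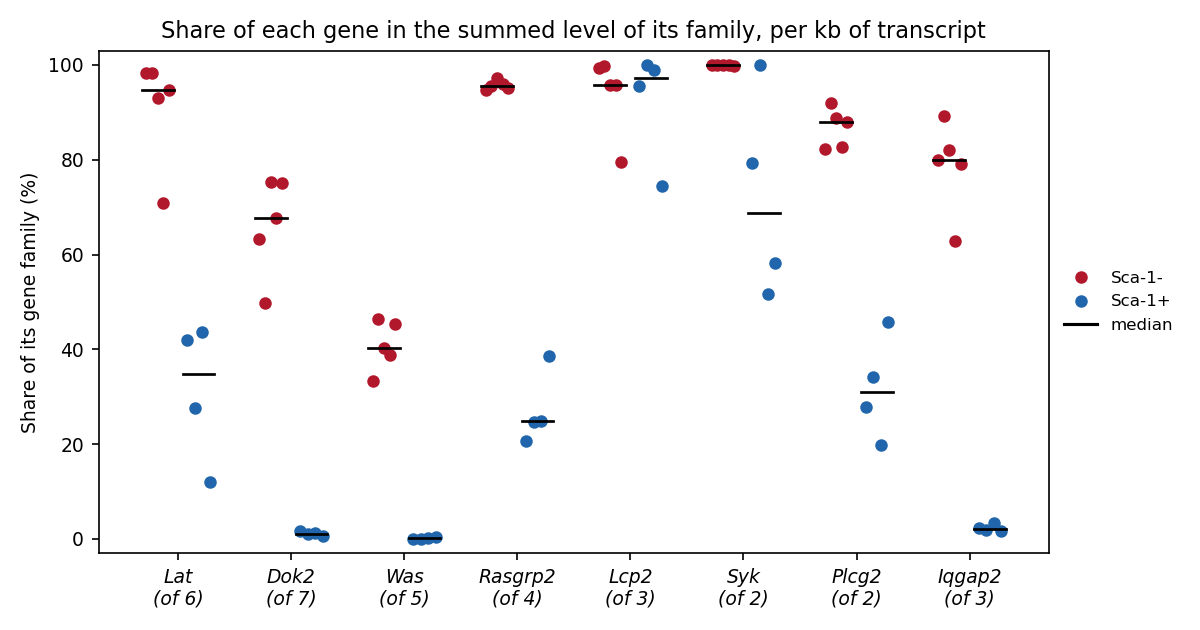
Share of each of the 8 genes in the summed level of its gene family (CPM per kb of principal transcript), each point being a library and each black line the median of a fraction. The points of the fractions lie apart for Lat, Dok2, Was, Rasgrp2, Plcg2 and Iqgap2, and overlap for Syk and for Lcp2, which is at least 74.5% of its family in every library.

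The rest of the signalling machinery was followed in a list of 81 genes sorted by role, 80 of which were tested. In edgeR at an adjusted p under 0.05, 54 genes (67.5%) were higher in Sca-1- and 11 (13.8%) higher in Sca-1+, against 21.4% and 23.3% of all genes, and the median log2 fold change was 2.70 against -0.07. The list was drawn up with earlier results of these data known, so its count is a description. The megakaryocyte markers moved in the same direction, as given above.

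All 3 receptor genes were higher in Sca-1-. Gp6, which encodes the collagen receptor GPVI, had a level of 463 ± 331 CPM (SD, n = 5) and was almost absent from Sca-1+ with 0.145 ± 0.170 CPM (SD, n = 4) (log2 fold change 11.56, adjusted p 4.63e-05, edgeR), and its estimate became 12.57 without Sca-1+ library 13. Clec1b, encoding CLEC-2, was at 2771 ± 1868 CPM against 3.41 ± 1.87 CPM (log2 fold change 9.66, adjusted p 3.65e-05, edgeR). Fcer1g, the ITAM-bearing chain that GPVI needs for signalling, changed much less (log2 fold change 1.80, adjusted p 0.00317, edgeR), and remained at 162 ± 61.5 CPM (SD, n = 4) in Sca-1+. Like Plcg2 it thus kept a large part of its level in Sca-1+, where Gp6 had at most 11 counts in any library.

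Of 7 kinases around Syk, 5 were higher in Sca-1- and none higher in Sca-1+, led by Btk (log2 fold change 7.76, adjusted p 9.46e-05), Src (6.92, adjusted p 0.000194) and Tec (6.06, adjusted p 7.11e-05) in edgeR. Btk and Tec phosphorylate Plcg2. Of 18 cytosolic adaptors, 12 were higher in Sca-1- and 3 in Sca-1+. Grap2, whose product Gads bridges LAT and SLP-76, was at 86.4 ± 42.3 CPM against 0.0682 ± 0.136 CPM (log2 fold change 10.17, adjusted p 4.94e-05, edgeR). Fyb, the SLP-76 partner ADAP, had a log2 fold change of 8.91 (adjusted p 2.14e-05), and Sla, an adaptor that dampens receptor signalling, of 10.04 (adjusted p 0.000743, edgeR). Without Sca-1+ library 7, which held the fraction's only counts of Grap2 (8), the estimate for Grap2 became 14.03, and without Sca-1+ library 19 that for Sla became 13.32, so that these folds rest on a single library each. The ubiquitin ligase Cblb (-2.44, adjusted p 0.00148) and the adaptor Gab3 (-1.43, adjusted p 0.00461) were higher in Sca-1+ in edgeR.

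Downstream, 10 of 16 genes of lipid and calcium signalling were higher in Sca-1- and 4 in Sca-1+. The protein kinase C genes Prkca (log2 fold change 6.69, adjusted p 2.31e-05), Prkcq (5.35, adjusted p 2.86e-05) and Prkcb (5.14, adjusted p 0.00124) led in edgeR among the called genes without overlap and with an average log2 CPM of at least 3, the last becoming 5.78 without Sca-1+ library 19. Below that level, Plcb2 had 0 counts in Sca-1+ and at most 6.81 CPM in Sca-1- (adjusted p 0.00694, edgeR). The opposite direction was led by Pik3r6, a regulator of phosphoinositide 3-kinase gamma (-4.80, adjusted p 0.00178, and -5.51 without Sca-1- library 16), and the calcium channel Itpr3 (-3.30, adjusted p 0.0113, edgeR), the latter losing its call without libraries 16, 22 and 19 (adjusted p 0.0584). Pik3r6 lost its call when libraries with consecutive end numbers were blocked as pairs (adjusted p 0.0509, edgeR). Of 11 tested genes of Rap1 and integrin activation, 7 were higher in Sca-1- and 2 in Sca-1+. Fermt3, the kindlin of blood cells, was at 4987 ± 2728 CPM against 8.59 ± 2.76 CPM (log2 fold change 9.18, adjusted p 1.50e-05, edgeR), and Vav1 (9.60, adjusted p 1.67e-05) and Rasa3, the GAP that opposes CalDAG-GEFI on Rap1 (5.84, adjusted p 0.000148), followed in edgeR. Sipa1, another GAP for Rap1, was higher in Sca-1+ (-1.67, adjusted p 0.000746, edgeR), as was Sos1 (-1.14, adjusted p 0.0199), whose call was lost without Sca-1- library 8 or Sca-1+ library 7 or 19. The GAPs Rasa3 and Sipa1 were thus called in opposite directions.

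Actin genes had the lowest median change of the groups (1.63). Of 15, 9 were higher in Sca-1- and 1, Evl (-0.97, adjusted p 0.0309, edgeR), in Sca-1+, a call lost without Sca-1- library 10, 14 or 22 or Sca-1+ library 7 or 19. Rac2, the Rac of blood cells (4.68, adjusted p 0.00275), Wipf1, whose product WIP binds and stabilises WASP (2.34, adjusted p 0.00178), and Arpc1a (2.23, adjusted p 0.000713) led in edgeR under the same limit on abundance, below which Pstpip1 (6.02, adjusted p 0.00111) and Pstpip2 (5.44, adjusted p 0.00306) had larger changes at no more than 13.8 CPM. Plcb2, Pstpip1 and Pstpip2 are named after their values were seen. Without Sca-1+ library 19, in which the neutrophil markers were highest (760 CPM), Rac2 was at 6.41. Of 10 inhibitory receptors and phosphatases, 8 were higher in Sca-1- and 1 in Sca-1+. Mpig6b, listed in the table as G6b, a megakaryocyte receptor that restrains GPVI and CLEC-2, had a log2 fold change of 9.83 (adjusted p 3.39e-05), and Ubash3a (7.07, adjusted p 0.000394) and Ubash3b (7.05, adjusted p 4.77e-05), which encode the TULA family phosphatases, were close to each other in edgeR. Their estimates moved to 10.54 for Mpig6b without Sca-1+ library 19 and to 8.16 for Ubash3a without Sca-1+ library 13. The lipid phosphatase Inppl1 was higher in Sca-1+ (-2.54, adjusted p 0.0160, edgeR), a call lost without libraries 16, 22 and 19 (adjusted p 0.101), and its estimate was -3.29 without Sca-1- library 8. Most inhibitory receptors and phosphatases listed were thus called higher in the same fraction as the activating receptors. Inppl1, Cblb and the GAP Sipa1 were called in the other direction.

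**Figure D4:**
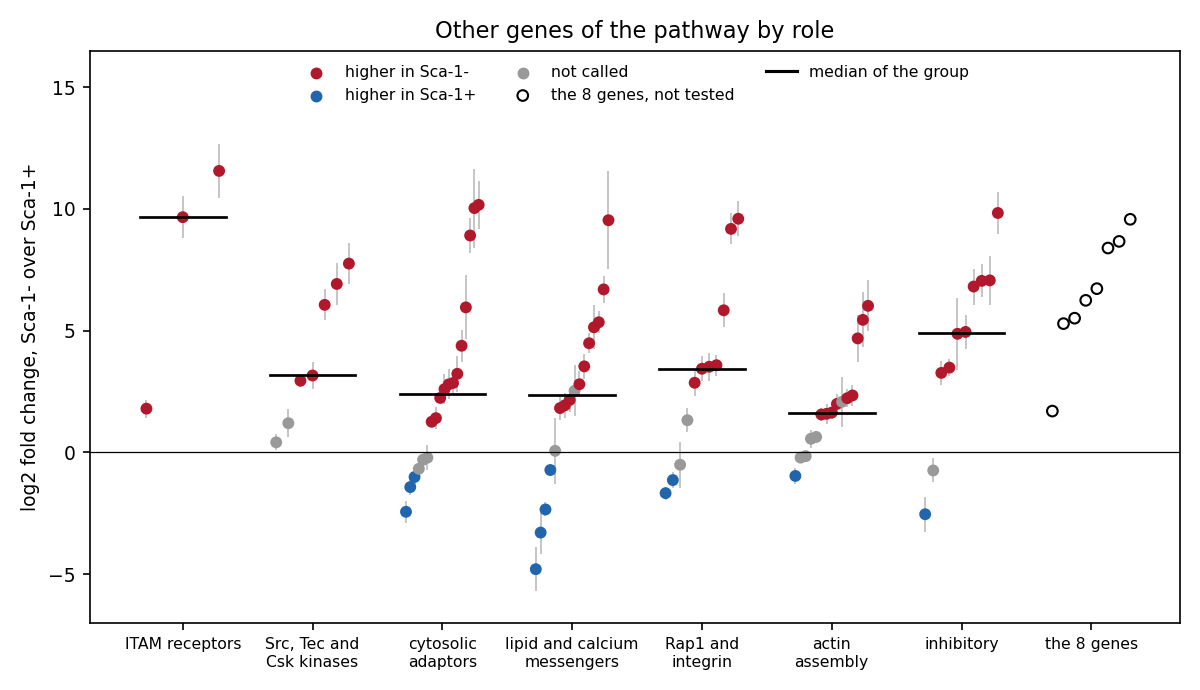
Log2 fold change (Sca-1- over Sca-1+, edgeR, with SE bars) of 80 other genes of the pathway by role, coloured by call, with the 8 genes as open circles without a test. Receptors have the highest group median (9.66) and actin genes the lowest (1.63).

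Over all 9 libraries, the genes whose centred log2 CPM lay closest to the mean profile of the 8 genes were Kctd1, Prkca, Ppif, Alox12 and Gm28609, with root-mean-square differences of 0.32 to 0.38 on the log2 scale. Prkca belongs to the pathway list, and Alox12 encodes the platelet 12-lipoxygenase. Iqgap2 itself was closest to that profile among the 8 genes (0.37) and Plcg2 farthest (2.34). This likeness mostly follows the difference between the fractions, which chose the 8 genes.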

How the data were processed

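RNA-seq was performed on 4 Sca-1+ and 5 Sca-1- libraries prepared with the miRNeasy micro and SMART-Seq v4 kits, which amplify polyadenylated RNA. The deposited values are whole-number read counts per gene that the authors made by aligning reads with STAR to mm10 and counting them with featureCounts, per the submitters' processing notes, while versions, annotation and strand setting are not given in the sources used here. The 8 genes and all lists were chosen with earlier results of these data known. Counts were filtered with filterByExpr (minimum count 10, minimum total 15), scaled with TMM factors and tested with edgeR 4.0.16 (glmQLFit, glmQLFTest, two-sided, Benjamini-Hochberg adjustment over 15937 genes, threshold 0.05) in R 4.3.3, with all 9 libraries and no covariate. The fit was checked on simulated data. CPM were computed from TMM-scaled library sizes, with a prior of 2 counts on the log2 scale. Total counts of 21581653 to 25959818 make 3 counts equal to 0.0996 to 0.210 CPM. Transcript lengths and positions came from GENCODE M21 (GRCm38), which matched 45143 of 46078 identifiers, and promoter windows from RefSeq. Genes named in the text were the 8 genes, every tested relative, up to 3 pathway genes per role with the largest change (adjusted p under 0.05, average log2 CPM of at least 3, no overlap between fractions) plus up to 2 higher in Sca-1+, and the 5 genes closest in profile. Library pairs with consecutive end numbers (7 and 8, 13 and 14, 15 and 16) had correlations of their deviations across genes of 0.147, 0.148 and 0.0420. In 17 other pairs the mean was -0.0196 and the highest value 0.0650, so 7 with 8 and 13 with 14 lay above all of them. The labels do not say whether libraries with consecutive end numbers share a mouse, and the main fit did not treat them as pairs. Alternatives were other scalings (DESeq2 size factors, upper quartile, library size only), other filters, DESeq2 1.42.0, limma 3.58.1 voom, a robust fit, a block on these pairs, leaving out each library and, chosen after seeing the data, leaving out libraries 16, 22 and 19, whose markers of other blood cells stood apart. Figures were drawn with matplotlib 3.10.9.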

Additional observations from a re-analysis of the deposited data

Results flagged for a closer look

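In 130 groups of 4 or 5 libraries, made of the named genes' log2 CPM and the marker sums in each fraction, 13 held a library whose gap to the rest exceeded Dixon's 95% critical value, where chance gives about 5% of groups. None of them belonged to the 8 genes. In Sca-1- library 14, Pag1 was at -3.63 log2 CPM (0 counts) against 1.04 to 2.80 in the other libraries, and in Sca-1- library 10, Dok5 was at -0.12 (12 counts) against 1.44 to 1.72. The mast cell and basophil markers summed to 12658 CPM in Sca-1- library 16 against 63.2 to 1755 CPM.

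In the Sca-1+ fraction, Sit1 was at -1.81 log2 CPM (6 counts) in library 7 and at -3.63 in the others, and Grap2 was at -1.50 (8 counts) in the same library. Library 13 stood low for Dok5 at -3.63 (0 counts) and for Iqgap3 at -3.12 (1 count against 1.01 to 1.76). Library 19 stood apart 6 times. It was high for Dok4 at 7.0 log2 CPM (6.41 to 6.49 in the others), for Rac2 at 4.06 (0.66 to 0.89), for the B cell markers at 265 CPM (117 to 135), for the neutrophil markers at 760 CPM (8.25 to 56.3) and for the mast cell and basophil markers at 56.0 CPM (0.205 to 7.15). It was low for Fcer1g at 6.17 log2 CPM (7.49 to 7.71).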

How the results depend on the processing

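Of 160 log2 fold changes of the 8 genes under 20 alternatives, all kept their direction and 156 moved by less than 1 SD of the libraries. With library size only, Lat was at 9.07 and Dok2 at 8.23, because this scaling moved the median of all genes to -0.43. The estimate for Was was 9.36 without Sca-1+ library 19 and 9.50 without libraries 16, 22 and 19. Over all alternatives Plcg2 ranged from 1.32 to 1.97. Library size only also turned the split of 3416 genes higher in Sca-1- and 3721 higher in Sca-1+ into 2431 and 4158, and left 3 relatives higher in Sca-1- in place of 5. Limma voom gave 5 relatives higher in Sca-1+ in place of 3. With the replicate block on 6 libraries, 4340 genes were called in place of 7137 (2075 higher in Sca-1- and 2265 in Sca-1+), with 2 relatives higher in Sca-1- and 5 pathway genes higher in Sca-1+. The same 6 libraries without the block gave 3 and 6, so part of this follows from the smaller number of libraries. Leaving out 1 library at a time gave 3 to 6 relatives higher in Sca-1- and 7 to 10 pathway genes higher in Sca-1+. Without libraries 16, 22 and 19 these counts were 3 and 5. Pathway genes higher in Sca-1- stayed within 1.5 times 54 in every alternative. Of the named relatives and pathway genes, no call changed direction. Wasf2, Rasgrp1, Rasgrp4, Dok3 and Pag1 gained a call in 1 to 3 alternatives each, and the block alone ended the calls of Blnk, Iqgap1 and Pik3r6 (adjusted p 0.0579, 0.0554 and 0.0509). On the same 6 libraries, with and without the block, Gab3, Itpr3, Inppl1, Evl, Sit1 and Dok5 were not called. For these results the cause was not tested. Depth limits Was in Sca-1+, where 8 counts in all were read.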

Other observations

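Of the other marker lists, the 8 erythroid markers summed to 569 to 2363 CPM in Sca-1- and 102 to 226 CPM in Sca-1+. In edgeR, 5 of them (62.5%) were called higher in Sca-1-, against 21.4% of all genes. The 6 natural killer cell markers summed to 17.7 to 75.3 CPM and 0 to 0.794 CPM, with Gzma at 0 counts in all libraries. The Sca-1- sum was carried by Nkg7 (17.5 to 74.6 CPM). Ncr1, Klrb1c, Klrd1 and Prf1 were below the filter and at no more than 0.679 CPM in any library. The 7 monocyte and macrophage markers summed to 11.7 to 39.2 CPM in Sca-1- and 115 to 234 CPM in Sca-1+, a difference carried by Cd14 (4.89 to 23.0 and 93.5 to 226 CPM), the only 1 of 5 tested that was called (20%, against 23.3% of all genes), while the median log2 fold change of the tested markers was 0.16. The 8 neutrophil markers spanned 132 to 739 CPM in Sca-1- and 8.25 to 760 CPM in Sca-1+, so the fractions overlapped.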
